A study of Rattus norvegicus with 35 samples.

Results

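The samples set side by side here were 18 rat livers exposed to the 3 lowest doses of TBB, a tetrabromobenzoate ester used as a flame retardant, and 5 livers of rats given the corn oil vehicle alone. They were chosen by their titles: 6 arrays each at 0.05, 0.55 and 5.50 mg/kg and the 5 vehicle arrays, 23 of the 35 arrays of the series. All rats were male Sprague Dawley animals, 7 weeks old at the start, on one diet and dosed by gavage at 5 ml/kg on 5 consecutive days, and the left liver lobe was taken 1 day after the last dose. The other 12 arrays, 6 each at 55 and 550 mg/kg, entered the model for the spread and served as a comparison. The labels do not tell whether every array came from its own animal, nor the hour of necropsy or the time since the last meal, so p-values measure only how much these samples varied, and that variation may be technical. The question was what separates all low-dose livers from vehicle livers, and whether clock, feeding or immediate early genes carry it.

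Clock, feeding and immediate early programmes move liver mRNA over hours. In the circadian clock, BMAL1 with CLOCK or NPAS2 drives genes with an E-box, among them the Per and Cry genes that block it, the Nr1d genes whose receptors silence Bmal1, and the output factors Dbp and Tef. Fasting raises genes of gluconeogenesis, fatty acid oxidation and ketogenesis, while feeding raises genes of lipid, cholesterol and glucose use through insulin, SREBP and ChREBP. Immediate early genes such as Fos, Egr1 and Jun respond within minutes to growth factors, stress and handling, and the integrated stress response acts through ATF4 on genes such as Chac1, Ddit4 and the hormone gene Fgf21. All levels below are RMA values on the log2 scale, a difference of 1 being a doubling of signal, and differences are the mean of the 3 low-dose group means minus the vehicle mean, with the standard error from limma.

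Pairwise correlations among the 23 arrays ran from 0.988 to 0.996, and no pair was identical. The first principal component held 14.5% of the variance and the second 12.7%. Array quality was read from 5 measures, each compared by an exact permutation test over all 33649 splits (two-sided). The interquartile range was 3.517 ± 0.092 (SD, n = 5) in vehicle and 3.477 ± 0.07 (SD, n = 18) at the low doses (exact p = 0.30). The exact p was 0.26 for the 3' minus 5' difference of the GAPDH control, a sign of RNA quality, 0.34 for the median correlation with other arrays, and 0.85 for the array median and the hexokinase control. Adjusted over the 5 measures, these exact p values were 0.57 to 0.85. The 12 measured hepatocyte markers, among them albumin, averaged 13 to 13.12 per array in vehicle and 12.96 to 13.15 at the low doses on the log2 scale.

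Across 31042 probe sets, 1 separated the pooled low doses from vehicle at an adjusted p under 0.05 (limma, Benjamini-Hochberg), which is 0.00322% of those tested. It was lower at the low doses and stood for Defa5, a member of the alpha-defensins, the antimicrobial peptides of neutrophils and of Paneth cells in the gut. At an unadjusted p under 0.05, limma counted 1589 probe sets (5.12%), 777 higher (2.5%) and 812 lower (2.62%). With 1 probe set for each of 14217 genes the share was again 5.12% (728 genes), with 275 higher (1.93%) and 453 lower (3.19%). Whatever their p, 6444 of these genes were higher (45.3%) and 7773 lower, so a tilt to lower was shared by all genes. Over all probe sets the median 95% half-width of a difference was 0.143, and for 30940 probe sets (99.7%) the 95% interval lay within a 2-fold change in either direction. For 30471 (98.2%) it lay within 1.5-fold. Genes that vary widely within groups had wider intervals, such as -1.2 to 0.63 for the clock output gene Dbp.

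Taken one at a time, none of the 3 doses gave a call. At 0.05 mg/kg limma called 0 probe sets (0%), with 1879 at an unadjusted p under 0.05 (6.05%) and a smallest adjusted p of 0.23. At 0.55 mg/kg it called 0 (0%), with 1198 (3.86%) and 0.76, and at 5.50 mg/kg 0 (0%), with 1536 (4.95%) and 0.096. The 3 low doses were also compared among themselves with limma's F test, which called 0 probe sets (0%) with 1292 at an unadjusted p under 0.05 (4.16%). The genes of smallest p there were Basp1, Nptxr, Clec11a, Ddr2 and App. Basp1, which encodes a membrane and signalling protein, stood 0.20 above vehicle at 0.05 mg/kg, 0.02 below it at 0.55 mg/kg and 0.37 below it at 5.50 mg/kg (limma F test, adjusted p = 0.087). The same model called 128 probe sets between the pooled 55 and 550 mg/kg doses and the pooled low doses (0.412%), 101 higher and 27 lower, and 2733 at an unadjusted p under 0.05 (8.8%).

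Defa5 read 4.47, 4.66, 4.27, 4.03 and 4.99 in vehicle replicates 1 to 5. The 18 low-dose livers ran from 3.65 to 4.13 with a median of 3.92. All 18 lay below the vehicle mean of 4.48 and 14 below the lowest vehicle liver, replicate 4, so the groups overlapped only through that replicate. The difference was -0.57 ± 0.09 (SE; 95% interval -0.76 to -0.38, limma adjusted p = 0.014), and it was -0.58, -0.54 and -0.59 at 0.05, 0.55 and 5.50 mg/kg. That SE rests on 1 spread shared by all 6 groups, a residual SD of 0.19. The Defa5 SD was 0.37 in vehicle and 0.17, 0.08 and 0.15 at 0.05, 0.55 and 5.50 mg/kg. The SE and interval thus understate the error that the vehicle mean brings. The 55 and 550 mg/kg livers, set against the same vehicle arrays, both differed by -0.42, and high minus low doses gave 0.15 (limma adjusted p = 0.48). The probe set was dim, at percentile 40.3 of vehicle signal. The call did not hold without vehicle replicate 1, 2 or 5 (limma adjusted p = 0.09, 0.13 and 0.12), and it was lost when only the 23 arrays were fitted (0.21) or arrays were weighted (0.079).

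The other alpha-defensins on the array did not pass. RatNP-3b, a neutrophil defensin gene, read 2.67, 3.90, 2.43, 2.47 and 5.07 in vehicle and 2.28 to 2.78 at the low doses, a difference of -0.80 ± 0.22 (limma adjusted p = 0.77). Only vehicle replicates 2 and 5 stood above the low-dose range, and those replicates also had the highest Defa5 values. Np4, another neutrophil defensin, read 3.09, 3.55, 3.23, 3.15 and 3.76 in vehicle, again highest in replicates 5 and 2, and its difference was -0.13. Defa7 and Defa24 differed by 0.08 and -0.03. The 8 measured of 11 neutrophil markers gave 6 higher and 2 lower differences with a median of 0.006. Their mean level ran from 4.04 to 4.31 per array in vehicle and from 3.91 to 4.45 at the low doses, while Mpo, Elane and Ltf had no single-symbol probe set. The part of neutrophil content in the Defa5 result was not tested, and in these bulk samples fewer cells of a type and less RNA per cell cannot be told apart.

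**Figure D1:**
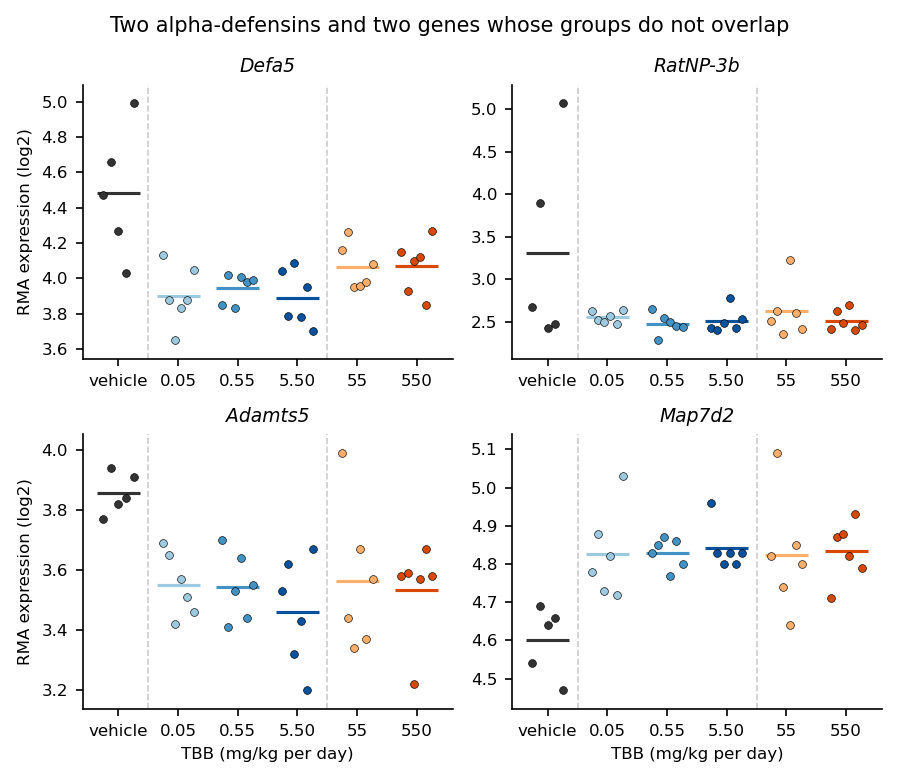
RMA expression (log2, y axis) of Defa5, RatNP-3b, Adamts5 and Map7d2 in every array, by dose of TBB in mg/kg (x axis); points are arrays and bars are group means. Vehicle Defa5 runs from 4.03 to 4.99 and the 18 low-dose livers from 3.65 to 4.13, whereas the groups of Adamts5 and Map7d2 do not overlap although neither passed the adjusted test.

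Complete separation was rare. Of all probe sets, 1 had all 18 low-dose livers below all 5 vehicle livers (0.00322%) and 3 had all of them above (0.00966%). With 33649 ways to split the 23 arrays and 31042 probe sets, a few such probe sets can arise by chance. The first was Adamts5, a secreted protease that cleaves the proteoglycan aggrecan, with 3.77, 3.94, 3.82, 3.84 and 3.91 in vehicle and 3.20 to 3.70 at the low doses. Its difference was -0.34 ± 0.08 (limma adjusted p = 0.46), and a second probe set of the gene gave -0.29. Map7d2, a microtubule-associated protein gene, read 4.54, 4.69, 4.64, 4.66 and 4.47 in vehicle and 4.72 to 5.03 at the low doses (0.23 ± 0.05, limma adjusted p = 0.46). The other two above were probe sets 1390631_at (0.40) and 1386208_at (0.20), for which no single gene symbol was given. Adamts5 and Map7d2 were dim, at percentiles 29.2 and 42.3 of vehicle signal.

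Beyond Defa5, the 9 other genes of smallest p among those lower at the low doses did not pass, and their adjusted p ran from 0.46 to 0.71. They were Adamts5, Klf10 (-0.92 ± 0.22), an early response repressor of the TGF-beta pathway, Fgf21 (-1.74 ± 0.42), Grpel2 (-0.25), a mitochondrial co-chaperone, the kinases Stk35 (-0.27) and Nek9 (-0.21), the receptor gene Gprc5b (-0.20), Samd10 (-0.34) and Nol4l (-0.30). The 10 genes of smallest p in the other direction had adjusted p from 0.46 to 0.88 and differences from 0.18 to 0.31. They were Map7d2, Dnal1, an axonemal dynein light chain, Emc1, of the complex that inserts membrane proteins, Camsap2, which binds microtubule minus ends, Timp4, a metalloprotease inhibitor, Actr10, of the dynactin complex, Dapk1, a cell death kinase, Kcnk3, a potassium channel, Lipe, the hormone-sensitive lipase, and Mycbp2, a ubiquitin ligase. Each gene is given by its probe set of smallest p, and where it had several they did not always match: those of Camsap2 ran from -0.09 to 0.18, of Emc1 from -0.06 to 0.27, of Nek9 from -0.21 to 0.13, of Stk35 from -0.27 to 0.02, of Nol4l from -0.30 to 0.01, of Dnal1 from -0.02 to 0.25 and of Lipe from -0.02 to 0.22. Likewise, those of Actr10 ran from 0 to 0.23 and of Dapk1 from 0.03 to 0.31. Probe set 1391523_at, with no single symbol, had the second smallest p of all, with a difference of 0.48 (limma adjusted p = 0.25, and 0.042 without 0.05 mg/kg replicate 6).

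**Figure D2:**
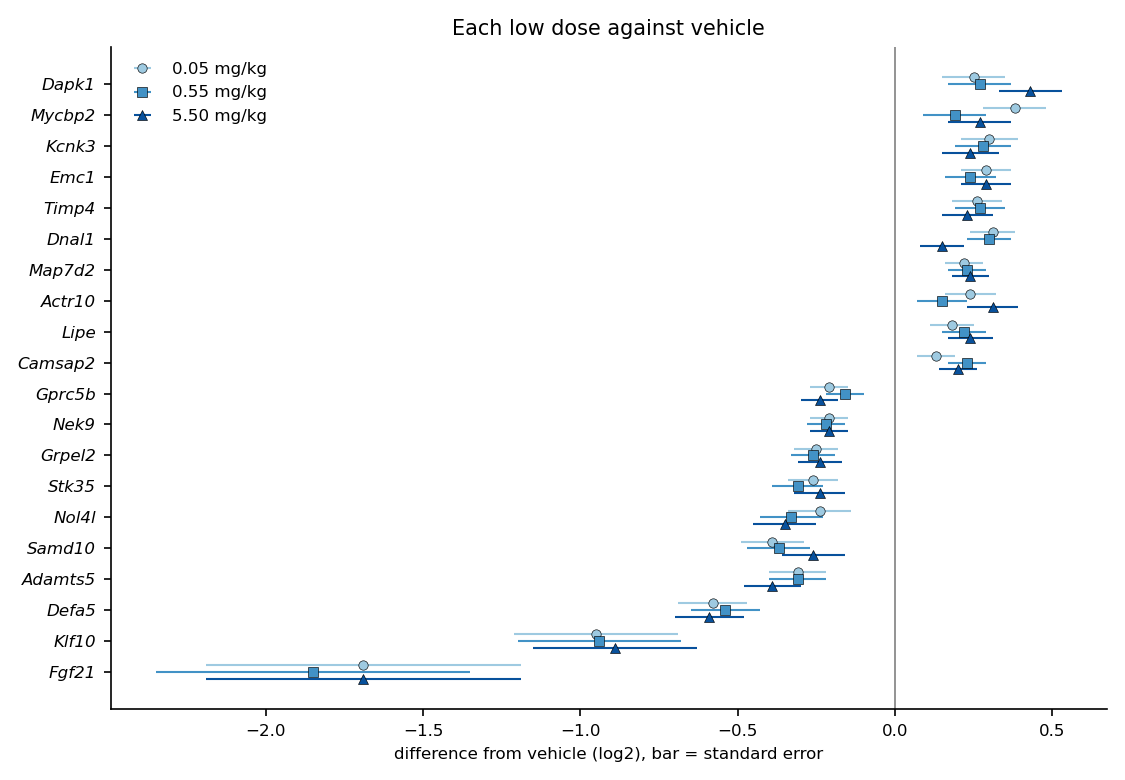
Difference from vehicle (log2, x axis, bars are standard errors) at 0.05, 0.55 and 5.50 mg/kg for the 10 genes of smallest p in each direction (y axis). The 3 doses lie on one side of 0 for each gene, which the choice of genes on the pooled difference and the shared vehicle arrays largely fix; Fgf21 is the widest, at -1.69, -1.85 and -1.69.

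The widest of these uncalled differences were those of Fgf21 and Klf10. Fgf21, the liver hormone released in fasting and amino acid stress, read 10.18, 9.12, 9.33, 8.06 and 7.59 in vehicle replicates 1 to 5 against 5.96 to 8.87 at the low doses with a median of 7.00 (limma adjusted p = 0.49). Replicates 1 to 3 stood above every low-dose liver, and replicates 4 and 5 lay inside their range. Klf10 read 8.93, 8.85, 8.57, 7.98 and 8.38 against 6.99 to 8.50, the same 3 replicates again standing highest. Both genes lay nearer to vehicle at 55 and 550 mg/kg, with differences of -0.78 and -1.13 for Fgf21 and -0.66 at both doses for Klf10. High minus low doses gave 0.79 for Fgf21 and did not pass (limma adjusted p = 0.37).

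Of 20 integrated stress response genes limma called 0, with 0 higher and 3 lower at an unadjusted p under 0.05 (15% against 5.12% of all genes), and the median difference was -0.04 against -0.008 over all genes. Chac1, which degrades glutathione under ATF4 control, read 8.56, 7.54, 8.16, 6.56 and 5.58 in vehicle and 5.59 to 7.66 at the low doses (-1.07 ± 0.34, adjusted p = 0.88). Ddit4, an inhibitor of mTORC1, read 8.96, 8.23, 8.86, 7.33 and 6.83 against 5.38 to 8.12 (-1.10 ± 0.40, adjusted p = 0.96). Atf4 itself read 11.05, 10.90, 10.92, 10.47 and 10.25 against 9.79 to 11.01 (-0.31 ± 0.15, adjusted p = 0.96). For these 3 genes, given by array after their values were seen, vehicle replicates 1 to 3 were the highest of the group, although replicate 2 of Chac1 and replicates 2 and 3 of Atf4 also lay below the highest low-dose liver. Ddit3, another stress factor on the list, did not share that order, with 7.02, 6.93, 6.82, 6.29 and 7.04. Other members did not share the difference, with Trib3, a pseudokinase target of ATF4, at -0.21, Asns, asparagine synthetase, at 0.18 and Slc7a11, the cystine transporter, at 0.55. Fgf21 was set against 8 stress and early response genes within the 18 low-dose livers, after each dose's mean was removed. Pearson's r was 0.81 with Atf3 (Spearman's rho 0.69), 0.78 with Klf10 (0.60), 0.75 with Atf4 (0.55), 0.72 with Ddit4 (0.68), 0.70 with Chac1 (0.38), 0.59 with Ddit3 (0.46), 0.50 with Bhlhe40 (0.49) and 0.32 with Trib3 (0.33). The permutation p values within dose, adjusted over 16 relations, were in that order 0.0012, 0.0057, 0.0025, 0.0038, 0.0076, 0.020, 0.067 and 0.23 for r and 0.0078, 0.025, 0.042, 0.0083, 0.16, 0.092, 0.072 and 0.22 for rho. Without the 2 livers farthest from the Fgf21 median the r values were 0.67, 0.40, 0.60, 0.59, 0.38, 0.47, 0.16 and 0.18, so the relations with Klf10, Chac1 and Bhlhe40 rested largely on those livers.

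**Figure D3:**
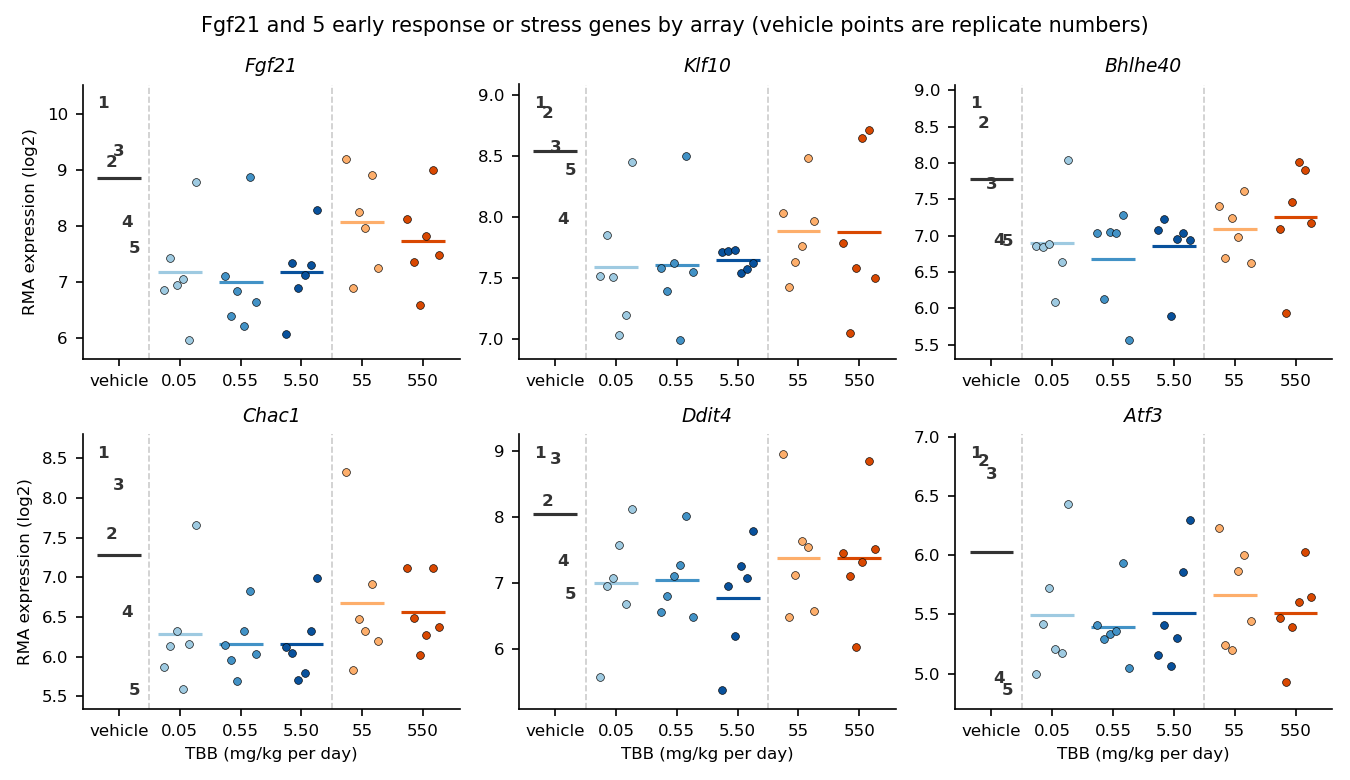
RMA expression (log2, y axis) of 6 genes in every array by dose of TBB in mg/kg (x axis); vehicle arrays are drawn as their replicate numbers, other arrays as points, and bars are group means. For these 6 genes vehicle replicates 1 to 3 lie above replicates 4 and 5, which lie below the highest low-dose liver, as do replicate 2 of Chac1 and replicate 3 of Bhlhe40; for Fgf21 the first 3 run from 9.12 to 10.18.

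Among 40 measured immediate early genes limma called 0, and 2 higher and 3 lower had an unadjusted p under 0.05 (12.5% against 5.12% of all genes). The median difference was -0.032, with 18 higher and 22 lower. Egr3 and Nr4a2, transcription factors, differed by 0.23 and 0.18, and Klf10, Atf3 and Csrnp1 by -0.92, -0.56 and -0.24, none with an adjusted p under 0.46. Atf3, a stress factor of the ATF family, read 6.86, 6.79, 6.68, 4.96 and 4.86 in vehicle and 5.00 to 6.43 at the low doses, so the vehicle group was split around the low-dose livers. Jun read 10.12 in vehicle replicate 1 and 8.04 to 8.93 in the others, against 7.87 to 8.90 at the low doses (-0.34 ± 0.23). Dusp1, a phosphatase of MAP kinases, read 11.23 in the same replicate and 8.50 to 9.78 in the others, against 8.49 to 9.73 (-0.55 ± 0.27). Gadd45g, a stress gene, read 9.91 there and 7.03 to 7.60 in the others. Replicate 1 was therefore the highest vehicle liver for these genes as for Fgf21. Egr1, the most variable member described, ran from 7.16 to 8.66 in vehicle and from 6.87 to 10.56 at the low doses (0.67 ± 0.51). Fos, Fosb, Junb, Ier3, Myc, Zfp36, Nr4a1 and Gadd45b differed by -0.09 to 0.11, and Ier2 by -0.32.

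Clock genes gave small mean differences. Limma called 0 of the 29 clock genes with a value, out of 33 listed, and 1 higher and 1 lower had an unadjusted p under 0.05 (6.9% against 5.12% of all genes). The median difference was 0.016. In the positive limb, Bmal1 differed by 0.16 (95% interval -0.31 to 0.63), Clock by -0.03 and Npas2 by -0.08. In the negative limb Per1, Per2 and Per3 differed by 0.03, 0.06 and 0.18, Cry1 and Cry2 by 0.04 and -0.03, and Nr1d1 and Nr1d2 by -0.03 and -0.10. Bhlhe40, a repressor that also responds to stress, was the exception in size, with 8.82, 8.55, 7.70, 6.93 and 6.92 in vehicle and 5.56 to 8.04 at the low doses (-0.97 ± 0.31, adjusted p = 0.88), and its relative Bhlhe41 differed by -0.04. Of the output genes, Dbp differed by -0.28, Tef and Hlf by 0.02 each and Nfil3, which competes with them, by -0.13. Cyp7a1, which sets the pace of bile acid synthesis, read 10.56, 10.83, 10.66, 11.12 and 12.24 in vehicle and 10.68 to 12.38 at the low doses (0.65 ± 0.28, adjusted p = 0.96), with only vehicle replicate 5 above the low-dose median of 11.84.

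Within groups the clock genes varied widely. The median residual SD of the 13 output genes was 2.88 times that of all genes (0.392 against 0.136), and over the 29 clock genes the ratio was 2.21. Bmal1 read 6.76, 6.67, 7.47, 7.11 and 5.50 in vehicle and 5.78 to 7.43 at the low doses, while Dbp read 7.00, 6.62, 5.14, 5.86 and 8.30 in vehicle and 4.97 to 8.30 at the low doses. The vehicle liver with the lowest Bmal1, replicate 5, had the highest Dbp, and replicate 3, with the highest Bmal1, had the lowest. Over the 18 low-dose livers, after each dose's mean was removed, Bmal1 and Dbp had r = -0.94 and rho = -0.93 (permutation within dose, adjusted p = 8e-05 for r and 0.00016 for rho, from raw values of 1e-05, the smallest that 100000 resamples give). With Npas2 the values were 0.90 and 0.90, with Cry1 0.73 and 0.85, with Clock 0.61 and 0.48, with Tef -0.87 and -0.80, with Per3 -0.78 and -0.72 and with Nr1d1 -0.65 and -0.69, each with an adjusted permutation p for r of at most 0.0082. For rho the adjusted permutation p was at most 0.0084 except with Clock, where it was 0.072. Bhlhe41 was the exception, with r = -0.19 and rho = -0.15. Without the 2 livers farthest from the Bmal1 median, r was -0.92 with Dbp, 0.84 with Npas2 and -0.76 with Tef. From liver to liver, Npas2, Cry1 and Clock thus ran with Bmal1, and Dbp, Tef, Per3 and Nr1d1 ran against it. The livers were all taken 1 day after the last dose, and the part of the hour of sampling in this spread was not tested.

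**Figure D4:**
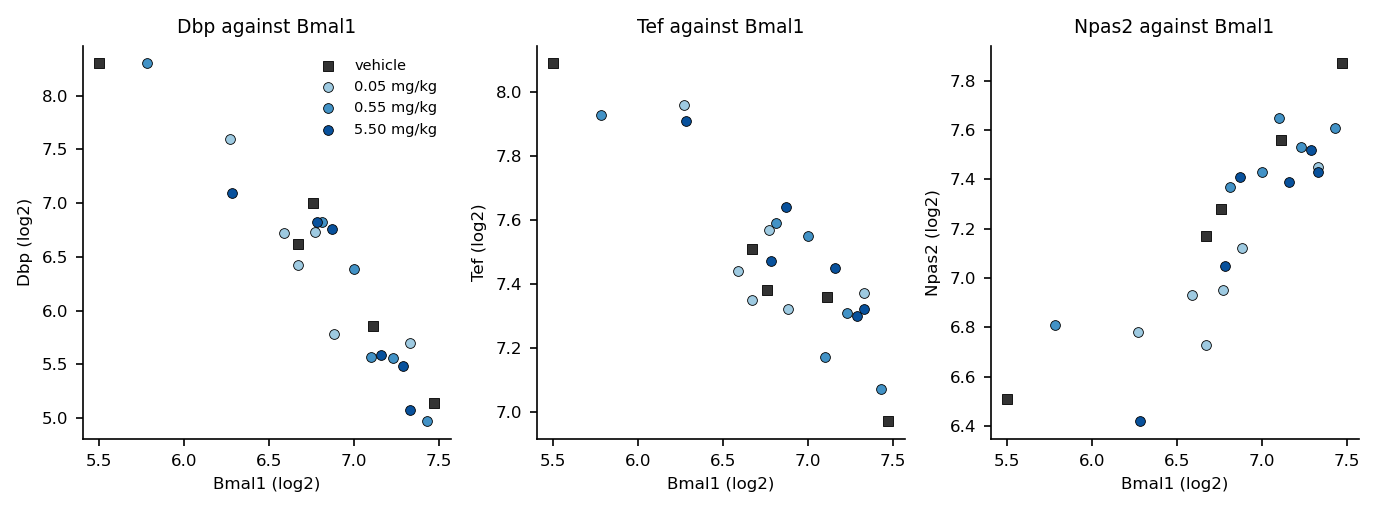
Expression of Dbp, Tef and Npas2 (log2, y axes) against Bmal1 (log2, x axis) in the 5 vehicle arrays (squares) and the 18 low-dose arrays (circles, darker with dose). Vehicle Bmal1 values, 5.50 to 7.47, span those at the low doses, 5.78 to 7.43, and Dbp and Tef run down and Npas2 up with Bmal1.

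The promoters of 3 of these genes are shown as examples of windows that held a match, chosen after values were seen. RefSeq promoter tables (build GRCr8) held 10 windows for 8 of 9 genes, Bmal1 and the 8 it was set against, and the 250 bases before each annotated start were searched on both strands for CACGTG (the E-box), AGGTCA (the core of the element that NR1D1 and ROR receptors bind), TTATGTAA and TTACGTAA (the D-box) and TGACGTCA (the cAMP response element). None of these motifs overlapped in the windows shown. Cry1 had no entry. Matches, in capitals below, were 1 AGGTCA 15 bases before the Bmal1 start, at chr1:176766078-176766327 on the plus strand, 1 E-box in the window of a downstream Nr1d1 start, at chr10:84229455-84229704 on the minus strand, and 1 E-box in the Tef window, at chr7:115206577-115206826 on the plus strand.
Bmal1: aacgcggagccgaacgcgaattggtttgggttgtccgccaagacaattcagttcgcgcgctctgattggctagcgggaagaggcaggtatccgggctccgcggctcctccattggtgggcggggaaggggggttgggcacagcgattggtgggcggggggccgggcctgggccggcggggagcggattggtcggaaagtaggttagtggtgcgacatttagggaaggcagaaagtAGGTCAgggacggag
Nr1d1: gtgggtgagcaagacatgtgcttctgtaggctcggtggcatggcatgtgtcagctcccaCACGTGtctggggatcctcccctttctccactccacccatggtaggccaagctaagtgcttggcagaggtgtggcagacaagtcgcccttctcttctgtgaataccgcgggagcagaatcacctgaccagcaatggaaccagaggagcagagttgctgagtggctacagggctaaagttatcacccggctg
Tef: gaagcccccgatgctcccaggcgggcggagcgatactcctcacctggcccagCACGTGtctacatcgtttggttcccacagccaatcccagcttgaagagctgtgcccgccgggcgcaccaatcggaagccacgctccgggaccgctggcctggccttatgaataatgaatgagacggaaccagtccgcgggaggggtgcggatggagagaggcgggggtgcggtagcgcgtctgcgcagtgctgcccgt
Bhlhe41, with r = -0.19 against Bmal1, held 1 E-box as well. The windows of Npas2, Clock, Dbp (r = -0.94) and Per3 (r = -0.78) and the other Nr1d1 window held none of the 4 motifs. The part of these motifs in the direction of the mRNAs was not tested. Of all 33469 promoter windows of that length, 5.59% held the E-box, 14.1% the receptor core, 0.932% a D-box and 1.59% the cAMP response element. A match is a description of letters and was not tested for binding.

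Feeding and fasting genes also gave small mean differences beside their spread. Limma called 0 of 91 genes with a value out of 104 listed, with 1 higher and 2 lower at an unadjusted p under 0.05 (3.3% against 5.12% of all genes), and the median difference was -0.023 with a residual SD 1.74 times that of all genes. Among 18 fasting gluconeogenesis genes 1 was higher at that threshold, Gpt2, an alanine transaminase (0.35 ± 0.11, adjusted p = 0.88). Pck1, the gluconeogenic control enzyme, differed by 0.12, Igfbp1, a growth factor binding protein that insulin suppresses, by 0.46 and Ppargc1a, a fasting coactivator, by -0.13. Of 22 fatty acid oxidation and ketogenesis genes, 2 were lower at that threshold, Fgf21 and Slc25a20, the carnitine carrier. Pdk4, Angptl4 and Cpt1a, which rise in fasting, differed by -0.19, 0.09 and -0.08 and so did not share the size of the Fgf21 difference. None of 19 lipid synthesis genes, 18 cholesterol synthesis genes or 15 glucose use genes reached an unadjusted p under 0.05, and limma called 0 of each.

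The members of these feeding lists show how the spread fell. Srebf1, the insulin-driven master factor of lipid synthesis, Fasn, the fatty acid synthase, and Pnpla3, a lipase under its control, differed by 0.07, 0.02 and 0.04, with low-dose values from 8.81 to 10.51 for Fasn and from 3.95 to 7.13 for Pnpla3. Scd, a fatty acid desaturase, stood 0.30 and 0.33 above vehicle at 0.05 and 0.55 mg/kg and 0.80 below it at 5.50 mg/kg (limma F test among the low doses, adjusted p = 1.0). Of the cholesterol genes 3 were higher and 15 lower with a median of -0.046, and Sqle, squalene epoxidase, differed by -0.04. Of the glucose use genes 2 were higher and 13 lower with a median of -0.051, and Txnip, a glucose-sensing arrestin, differed by -0.08. The share of higher genes was 16.7% in the cholesterol list and 13.3% in the glucose use list, against 45.3% of all genes. Ciart, G6pc1 and Btg2 were on no single-symbol probe set and have no value here.

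**Figure D5:**
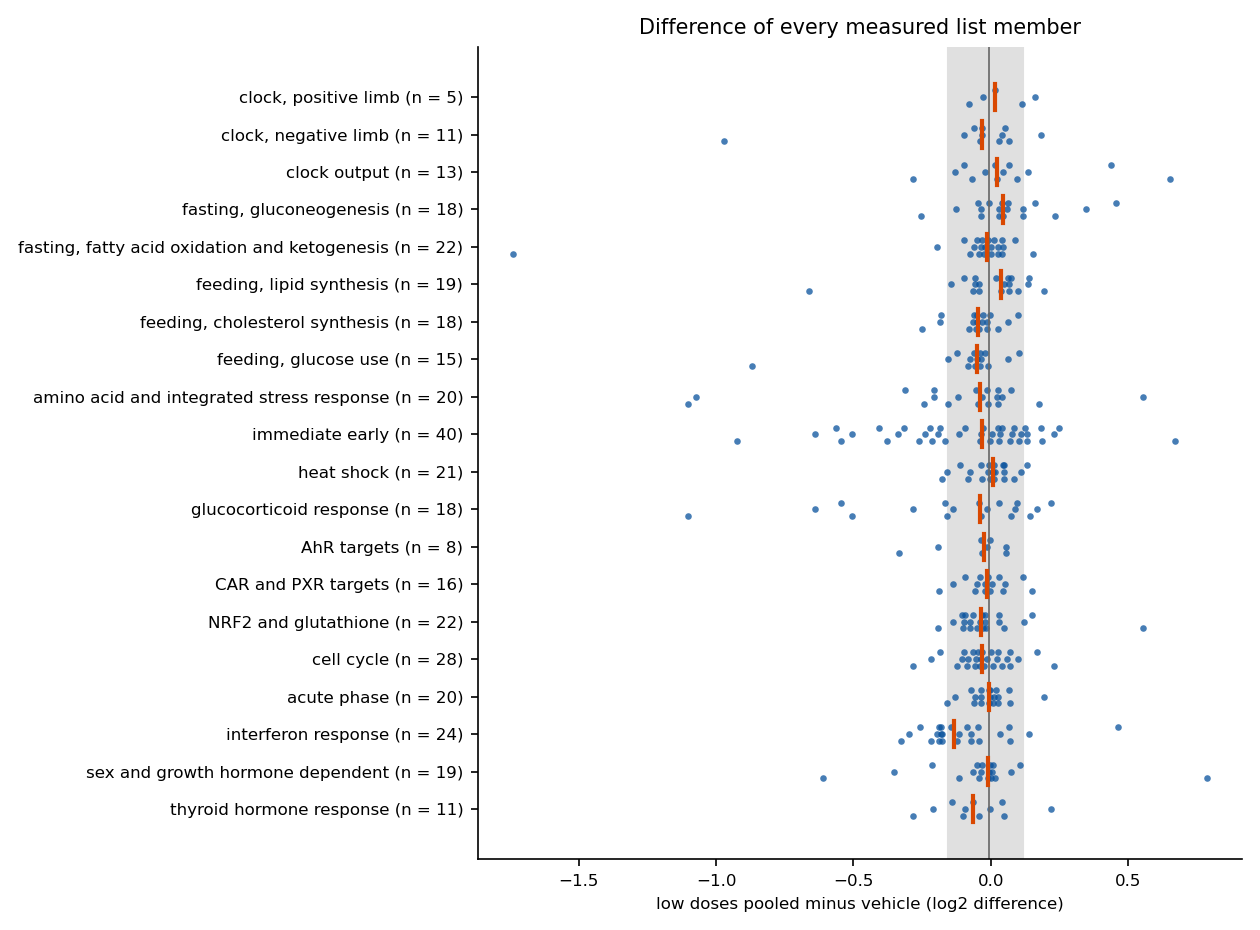
Difference between the pooled low doses and vehicle (log2, x axis) of every measured member of 20 gene lists (y axis, with the number of members); points are genes, orange bars list medians, the line the median of all genes (-0.008) and the grey band their 5th to 95th percentile (-0.156 to 0.119). The band describes single genes and is no yardstick for a list median; the points far to the left include Fgf21, Chac1, Ddit4, Bhlhe40 and Klf10.

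Genes of other responses were read from the same contrast, and limma called 0 members of each list that follows. The aryl hydrocarbon receptor (AhR) is the pathway with the strongest transcript at the upper doses, where Cyp1a1 stood 4.26 and 7.34 above vehicle at 55 and 550 mg/kg. At the low doses Cyp1a1 differed by 0.06 (95% interval -0.35 to 0.46), from -0.06 at 0.05 mg/kg to 0.22 at 5.50 mg/kg, and the 95% interval of Cyp1a2 was -0.09 to 0.08. Nqo1, a quinone reductase, differed by -0.19 and Tiparp, an AhR-induced repressor, by -0.33 ± 0.12 (adjusted p = 0.96). Tiparp was the 1 of 8 AhR targets with an unadjusted p under 0.05 (12.5% against 5.12% of all genes). Between the higher and the low doses the 5 genes of smallest p were Cyp1a1 (5.74), Cyp1a2 (0.76), Nqo1 (1.16), Glyatl2 (0.39), an acyltransferase gene, and Cyb5a (0.18), the cytochrome b5 gene. Each of these passed (limma adjusted p at most 0.00025), and none of them passed between the low doses and vehicle.

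The CAR and PXR targets had a median of -0.014 (16 measured), NRF2 and glutathione genes -0.037 (22), heat shock genes 0.008 (21), glucocorticoid response genes -0.038 (18), acute phase genes -0.005 (20), sex and growth hormone dependent genes -0.011 (19) and thyroid hormone genes -0.066 (11). Taldo1 of the glutathione list and Ddit4 of the glucocorticoid list were their 1 member with an unadjusted p under 0.05 (4.55% and 5.56% against 5.12% of all genes), both lower, and the other 5 lists had none. Acot1, an acyl-CoA thioesterase, differed by 0.03. Of 28 cell cycle genes 3 were lower at that threshold, the DNA replication helicase subunits Mcm2 (-0.19), Mcm4 (-0.22) and Mcm6 (-0.28), with adjusted p = 0.96 for each (10.7% of the list against 5.12% of all genes), and the list median was -0.032. Interferon response genes had a median of -0.133 with 5 higher and 19 lower (20.8% higher against 45.3% of all genes). None of them had an unadjusted p under 0.05. By dose the median was 0.028, -0.257 and -0.18 at 0.05, 0.55 and 5.50 mg/kg, so the lowest dose did not share the direction. Their residual SD was 3.35 times that of all genes, and their mean level per array ran from 7.34 to 8.17 in vehicle and from 6.37 to 7.91 at the low doses.

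Cell type markers gave small differences, and limma called 0 in any of the 12 lists. Kupffer cell and macrophage markers had a median of -0.171 with 1 higher and 9 lower (10% higher against 45.3% of all genes). Their mean level was 8.85 to 9.15 in vehicle and 8.04 to 9.24 at the low doses. In the pooled difference, stellate and fibroblast markers were lower for all 13 measured (median -0.082, mean level 6.84 to 7.47 in vehicle and 6.71 to 7.49 at the low doses). Des was the 1 with an unadjusted p under 0.05 (7.69% against 5.12% of all genes). By dose the median of this list was 0.071, -0.054 and -0.244 at 0.05, 0.55 and 5.50 mg/kg, so the lowest dose did not share the direction. Endothelial markers had a median of -0.065 with 1 higher and 9 lower, Stab1, a sinusoidal scavenger receptor, being the 1 of 10 with an unadjusted p under 0.05 (-0.21 ± 0.08). Medians were -0.006 for hepatocyte, 0.022 for pericentral, 0.042 for periportal, -0.038 for cholangiocyte, 0.027 for lymphocyte, -0.095 for red blood cell, 0.026 for adipocyte and mesothelium and 0.063 for pancreas markers. At an unadjusted p under 0.05 stood Cyp7a1 of the pericentral list, Ms4a1 of the lymphocyte list and Cpa1 and Ctrb1 of the pancreas list, all higher, which is 8.33%, 7.14% and 18.2% of these lists against 5.12% of all genes. Members of a list share cells and arrays, so their common direction is no independent evidence, and the part of cell content in any difference was not tested.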

How the data were processed

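The authors deposited log2 values per probe set, made with RMA and affy per the submitters' processing notes; versions and filters were not given in the sources used. RMA by its usual definition corrects background, gives arrays one distribution and summarises probes, so a shift shared by most genes cannot be seen and folds of dim genes are shrunk. The 57 Affymetrix controls among 31099 probe sets were dropped, leaving 31042. GEO's platform annotation named 1 gene for 20826, several for 436 and none for 9780; 20758 matched RefSeq genes (GRCr8), used for names.

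The design text names R/maanova at a false discovery rate of 5%. Here limma 3.58.1 in R 4.3.3 was fitted to all 35 arrays with a mean for each of the 6 groups (two-sided, Benjamini-Hochberg over all probe sets, adjusted p under 0.05), checked on simulated data. With arrays, their number limits the precision. Genes were represented by their brightest probe set in lists and by the smallest p when ranked. Named were up to 15 called genes per direction, or the 10 of smallest p where fewer than 10 passed, 5 for other comparisons, the smallest p or up to 4 called members of a list, and the main clock, feeding, immediate early and AhR genes. The comparison, members and lists were chosen with earlier results of these data known. The stress genes given by array, the defensins, the correlations (numpy 2.4.6) and the promoters, which the naming rule kept for called genes, were chosen after values were seen. Alternatives were 40% dim probe sets left out, median centring, cyclic loess, trend and robust eBayes, fewer groups, weighted arrays, a block for the replicate number, each array left out, each dose left out, 1 mean for the low doses, 1 probe set per gene and a 1.5-fold minimum; added later were the array interquartile range as a covariate and all 5 doses pooled.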

Additional observations from a re-analysis of the deposited data

Results flagged for a closer look

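Of 96 groups of arrays checked, 4 for each of 24 genes, 8 held an array whose gap to its nearest neighbour passed Dixon's 95% limit, and chance gives about 1 in 20. At 0.55 mg/kg, replicate 5 stood high for Fgf21 (8.87) and for Atf4 (10.81), and replicate 3 stood apart for Dusp1 (9.64) and Npas2 (6.81). At 5.50 mg/kg, replicate 4 stood high for RatNP-3b (2.78), replicate 1 for Map7d2 (4.96) and replicate 3 low for Bhlhe40 (5.90). At 0.05 mg/kg, replicate 6 stood high for Chac1 (7.66).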

How the results depend on the processing

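The count of 1 for the pooled low doses became 0 when the 40% dimmest probe sets were left out. That filter removed the Defa5 probe set itself and so did not retest it. The count also became 0 when only the groups compared were fitted, with array weights, with a change of at least 1.5-fold and without the 5.50 mg/kg dose. In the last setting Defa5 had adjusted p = 0.052 in limma. The count became 3 with all 5 doses pooled, as Cyp1a1 (2.35) and Cyp1a2 (0.30) joined Defa5, and Cyp1a2 changed sign there through the 2 upper doses. Leaving out 1 array in turn gave 0 to 2, the 2 without 0.05 mg/kg replicate 6 and 0 without vehicle replicates 1, 2 or 5. The ranges were 0 to 1 for each single dose (1 without vehicle replicate 4 at all 3, Defa5, and 1 at 5.50 mg/kg without vehicle replicate 5, probe set 1391523_at), 0 to 1 among the low doses (Clec11a without 0.05 mg/kg replicate 3, Basp1 without 0.55 mg/kg replicate 3) and 77 (without 550 mg/kg replicate 4) to 155 for high against low doses. Cyclic loess gave 1 at 5.50 mg/kg (Defa5), and 1 probe set per gene gave 1 among the low doses (Basp1). The interquartile range as covariate, added after seeing the data, gave 1 at 0.05 mg/kg, 1 at 5.50 mg/kg and 1 among the low doses. High against low doses held 11 probe sets at 1.5-fold or more. The causes were not tested, other than the fewer probe sets, arrays or the added fold that a setting itself brings. Of 3576 values of 95 single genes under the alternatives, 3566 kept their direction if called and their side of the threshold, 7 were weaker, all Defa5, 2 stronger and 1 reversed. Differences changed sign 108 times, over 34 genes, a count that includes the reversed value.

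The groups share replicate numbers in the labels. Same-numbered arrays of the vehicle and low-dose groups had correlated deviations of -0.31 to 0.18 (mean -0.022 over 33 pairs, 8 above 0.1; mean 0.004 over the other 165 pairs), so the numbers were not taken to pair samples. The replicate block gave 1 call for the pooled low doses, 0 for each single dose and among the low doses, and 108 for high against low doses.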
